A study of Mus musculus with 45 samples.

Results

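The genes described here encode the protein components of the cytosolic ribosome. They were chosen by name from the protein-coding genes of the GENCODE annotation of the mouse genome (build GRCm38), taking symbols that start with Rpl or Rps and a digit, or with Rplp, and leaving out the Rps6k kinases and pseudogenes. The rule gave 85 of 21938 protein-coding genes. Of these, 46 encode proteins of the large (60S) subunit and 30 encode proteins of the small (40S) subunit. A further 8 are paralogous copies such as Rpl3l and Rpl22l1, and 1, Rps19bp1, encodes a partner of a ribosomal protein rather than a ribosomal protein and was kept only because the symbol rule takes it.

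CIC (Capicua) is an HMG-box repressor that recognises short octamers such as TGAATGAA in the promoters and enhancers of its targets, and ATXN1, the protein with an expanded polyglutamine tract in spinocerebellar ataxia type 1, forms a complex with it through the AXH domain. CUT&RUN, in which an antibody tethers a nuclease that releases the DNA beneath the bound protein, was performed on cerebellar nuclei of 15 mice labelled C57BL/6 (backcrossed to C57BL/6J, per the study's methods) at 10 weeks of age, with antibodies against CIC and H3K27ac and with IgG (45 samples), of which the CIC lists are used here. The genotypes were wildtype (WT, n = 4), Atxn1_154Q/2Q (154Q, n = 4), Atxn1_154Q[V591A;S602D]/2Q (154Q[V591A;S602D], n = 3) and Engrailed1-Cre;Cicfl/fl (CIC KO, n = 4). The 154Q and 154Q[V591A;S602D] mice each keep 1 Atxn1 allele of normal length, and the added V591A and S602D changes lie in the AXH domain that contacts CIC. In CIC KO mice Cre is driven by Engrailed1, so that cells outside the Engrailed1 lineage retain Cic. The values are 3 lists of CIC peaks, 1 per genotype, each called on the merged libraries of that genotype against the same merged CIC KO libraries. Each list was given to a genotype by its own name, because the sample labels attach the name of the WT list to the CIC KO libraries and not to the wildtype ones. There was no list per animal, so no spread between animals could be computed, no test between genotypes was made, and the lists are given side by side as 3 descriptions that share their control.

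Ribosomal protein genes are among the most highly transcribed genes of every cell, and their products are needed in roughly equal amounts. Their promoters are short and mostly CpG-rich, lack a strong TATA box, start transcription within a pyrimidine tract (the 5′ TOP motif that places their mRNAs under mTOR control), and carry sites of general factors such as ETS proteins, YY1 and SP/KLF proteins. They are not usually counted among the targets of CIC, which are led by Etv, Spry, Spred and Dusp genes of the RAS-ERK pathway. A gene was said to have a promoter peak when a peak summit, the position of highest signal, lay within 1 kb of any of its annotated transcript starts.

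Stretches of genomic sequence from the GRCm38 assembly at the promoters to which the results return are given first. The 1st group shows, for 7 members with a peak, a 13-base element made of ACTACA, any base and TTCCCA, a sequence known as a binding site of the general promoter factors ZNF143 and THAP11. The element is in capitals, printed 5′ to 3′ on the strand that carries it, with 8 bases on either side. In Rpl6 and Rps27a the 12 defined letters match exactly, and in Rps26, Rplp2, Rps3, Rpl41 and Rpl7 they match with 1 mismatch.
Rpl6 (chr5:121204436-121204464, plus strand): aaagaaaaACTACATTTCCCAtgatgccc
Rps27a (chr11:29548149-29548177, minus strand): agtgtaaaACTACAATTCCCAgatagact
Rps26 (chr10:128626855-128626883, minus strand): caagtcgtACTACAACTCCCAcaatgcat
Rplp2 (chr7:141447307-141447335, minus strand): taaggcgaACTACAAATCCCAtgacgctt
Rps3 (chr7:99483742-99483770, minus strand): gacgcaaaACTTCATTTCCCAtgcaaaac
Rpl41 (chr10:128549376-128549404, minus strand): accaagaaACTACAACTCCCAtgaagcaa
Rpl7 (chr1:16104740-16104768, plus strand): ggatgtgaACTACAAGTCCCAgcatgcgt

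The 2nd group shows 101 bases centred on the summit for members whose peaks are described below, on the strand of the gene. Capitals mark only the same element in the Rps27a and Rplp2 windows and the SP/KLF box GGGCGG, here read as its complement CCGCCC, in the Rps19 window. The Rplp2 window also holds an ETS core (CTTCCGG, the complement of CCGGAAG) and an SP/KLF box, both left in lower case. The Rpl27 window holds neither, nor any other motif searched.
Rps27a, 154Q summit (chr11:29548144-29548244, minus strand): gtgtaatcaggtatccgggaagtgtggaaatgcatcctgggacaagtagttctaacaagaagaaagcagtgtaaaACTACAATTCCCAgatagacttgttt
Rplp2, WT summit (chr7:141447264-141447364, plus strand): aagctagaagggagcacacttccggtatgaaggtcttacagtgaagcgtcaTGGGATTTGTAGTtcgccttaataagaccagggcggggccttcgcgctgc
Rps19, 154Q[V591A;S602D] summit (chr7:24884217-24884317, plus strand): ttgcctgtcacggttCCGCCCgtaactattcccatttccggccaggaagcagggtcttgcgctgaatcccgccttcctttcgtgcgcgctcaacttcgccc
Rpl27, 154Q[V591A;S602D] summit (chr11:101442174-101442274, plus strand): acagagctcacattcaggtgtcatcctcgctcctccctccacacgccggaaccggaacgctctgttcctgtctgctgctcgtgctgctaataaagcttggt

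At Rpl41, the member with the highest peak, the ETS core CCGGAAG lay 30 bp from the WT summit, and it is shown in capitals in the stretch below, from the minus strand that the gene is read on.
Rpl41 (chr10:128549207-128549235, minus strand): tagtaaggcagCCGGAAGtcgctgtctcg

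In the WT list, 27 of the 85 ribosomal protein genes (31.8%, 95% Wilson interval 22.8 to 42.3%) had a promoter peak, against 2577 of 21938 protein-coding genes (11.7%). The share of ribosomal protein genes was thus 2.70 times that of all genes. In the 154Q list, 11 of the 85 genes (12.9%, 7.38 to 21.7%) had a promoter peak, against 4.88% of all genes, a ratio of 2.65. In the mutant 154Q[V591A;S602D] list, 4 of the 85 genes (4.71%, 1.85 to 11.5%) had one, against 2.82% of all genes, a ratio of 1.67, and the interval of the members reached below the share of all genes. The lists differ in length, with 4588, 1690 and 918 peaks in this order. When the 918 highest peaks of each were taken, 6, 7 and 4 of the 85 genes had one, against 3.35%, 2.9% and 2.82% of all genes. The intervals cover counting error over genes only and hold no information on the spread between mice.

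Part of this excess over all genes was shared with other CpG-rich promoters. Among the 9740 protein-coding genes (44.4%) whose sequence within 500 bp of the gene start had a GC content of at least 50% and an observed-to-expected CpG ratio of at least 0.6, promoter peaks were called at 20.9% (WT list), 8.66% (154Q list) and 5.03% (154Q[V591A;S602D] list) of genes. Ribosomal protein promoters met this definition in 70 of 85 cases (82.4%). Against CpG-rich promoters, the ratio of the members' share was 1.52 for WT, 1.5 for 154Q and 0.935 for 154Q[V591A;S602D]. For WT the lower bound of the members' interval, 22.8%, lay above the CpG-rich share. For 154Q the interval held it. For 154Q[V591A;S602D] the members' own share was below that of CpG-rich promoters. The 70 CpG-rich members alone gave 20 with a WT peak (28.6%, 19.3 to 40.1%), 7 with a 154Q peak (10%, 4.93 to 19.2%) and 2 with a 154Q[V591A;S602D] peak (2.86%, 0.787 to 9.83%), and each of these intervals holds the share of CpG-rich promoters.

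The other 15 members, outside this definition, held the highest peaks. A WT peak was found at 7 of them (46.7%, 24.8 to 69.9%), namely Rpl10, Rpl18, Rpl41, Rps2, Rps9, Rps14 and Rps26, against 544 of the 12198 protein-coding promoters that are not CpG-rich (4.46%). In the 154Q list 4 of the 15 (26.7%, 10.9 to 52%) had a peak, against 1.86%, and in the 154Q[V591A;S602D] list 2 of 15 (13.3%, 3.74 to 37.9%), against 1.05%. Rpl41, Rps26 and Rpl10, the members with the highest WT values, all belong here, with GC contents of 46.7%, 46.7% and 49.6% around the gene start, below the limit of 50%. Their CpG ratios (0.716, 0.846 and 0.750) were near the median of the members (0.785) and above that of all genes (0.552). The sequence was measured at the 5′ end of the gene record, which at Rps2 and Rps14 is not the start nearest the peak.

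**Figure D1:**
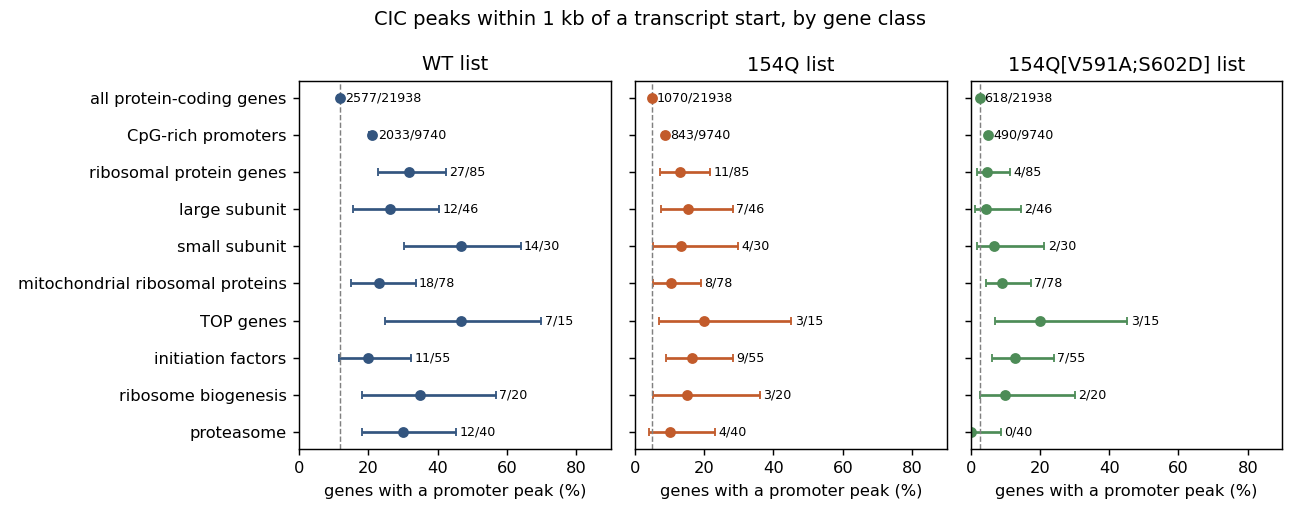
Share of genes (%) with a CIC promoter peak, by gene class and list. Points are shares with 95% Wilson intervals, the numbers beside them give genes with a peak and genes in the class, and the dashed line is the share of all protein-coding genes. The 85 ribosomal protein genes sit at 31.8%, 12.9% and 4.71% from the left to the right panel.

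Both subunits were represented. Of the genes of small-subunit proteins, 14 of 30 (46.7%, 30.2 to 63.9%) had a WT peak, and of those of large-subunit proteins 12 of 46 (26.1%, 15.6 to 40.3%), with intervals that overlap. The order was not the same in the 154Q list, with 4 of 30 small-subunit genes (13.3%) and 7 of 46 large-subunit genes (15.2%), and the 154Q[V591A;S602D] list held 2 genes of each. Of the 8 paralogs and Rps19bp1, Rpl22l1 alone had a peak, in the WT list. In all, 29 members (34.1%) had a promoter peak in at least 1 list, against 13.1% of all protein-coding genes. A peak in all lists was found at Rpl27, Rpl41 and Rps26 (3.53% of members, against 1.76% of all protein-coding genes). A further 6 genes had one in the WT and 154Q lists (Rpl10, Rpl31, Rplp2, Rps3, Rps9 and Rps27a; 7.06%, against 2.14%), and Rps19 had one in the WT and 154Q[V591A;S602D] lists (1.18%, against 0.552%). Rpl39 and Rpl6 had one in the 154Q list alone (2.35%, against 0.875%), and 17 had one in the WT list alone (20%, against 7.30%). No member had one in 154Q[V591A;S602D] alone or in both mutant lists without WT, as 0.401% and 0.105% of all genes did. The 17 WT-only genes were 58.6% of the 29 members with any peak, near the 55.6% that WT-only genes made up of the 2880 protein-coding genes with any peak.

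The remaining 56 members had no promoter peak in any list. They were 32 large-subunit genes, 16 small-subunit genes, 7 paralogs and Rps19bp1, and included Rplp0 and Rplp1, which with Rplp2 build the ribosomal stalk that recruits elongation factors, Rpl5 and Rpl11, which bind 5S rRNA and MDM2, and Rps6, the substrate of the S6 kinases. The 1 kb limit did not decide which genes were counted. The outermost best summit inside it was that of Rpl31 in the 154Q list, at 496 bp, and the nearest summits outside it were 3258 bp from Rpl8 (154Q[V591A;S602D] list), 3315 bp from Rpl3l (WT list) and 3435 bp from Rpl36 (WT list).

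Rpl41 had the highest ribosomal protein peak. Rpl41 encodes the smallest protein of the ribosome, a short basic peptide of the large subunit. Its WT peak (chr10:128548939-128549534) had a −log10 q of 83.1 and a fold enrichment of 8.36, the ratio of fragments at the summit to the CIC KO background, each plus 1. This corresponded to 154 fragments over a scaled background of 17.5. It was the 26th highest of 4588 WT peaks. The 154Q[V591A;S602D] peak of Rpl41 had a −log10 q of 17.0 and a fold enrichment of 4.22 (65 fragments over 14.6) and ranked 48 of 918. The 154Q summit had a −log10 q of 12.3 and ranked 233 of 1690. The summits of all lists lay within 18 bp of each other, in an exon of Rpl41 outside its coding sequence, and the next protein-coding start, that of Zc3h10, was 1477 bp from the WT summit.

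Promoter peaks of established CIC targets give the scale of these values. In the WT list Etv5 and Spry4 had −log10 q values of 488 and 303 with fold enrichments of 5.90 and 6.32, and Etv1 had 72.1 with 7.34. Rpl41 thus lay between Etv1 and Dusp4 (119, 5.99) by −log10 q, and its fold enrichment was above that of each of the 8 targets examined, whose highest was the 7.34 of Etv1. The targets also reached low values in WT, with Spred2 at 37.6, Spred1 at 7.39 (rank 1207) and Dusp6 at 2.29 (rank 3232), so that Rps26, Rpl10, Rps27a, Rps19, Rps3 and Rplp2 lay above Spred1 and Dusp6. In the 154Q list the order was different. There Rpl41 (12.3) lay below all 8 targets, of which the lowest was Dusp6 at 15.7, and Dusp6 was the only target below Rps26 (17.0). Among the 154Q[V591A;S602D] peaks the 17.0 of Rpl41 lay between Spred2 (14.5) and Etv1 (20.2), Spred1 had 4.70, and Dusp6 had no promoter peak.

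Rps26, which encodes a small-subunit protein at the mRNA exit channel, followed. It lies 77.4 kb from Rpl41 on the same chromosome, so that these are separate promoters and separate peaks. Its WT peak (chr10:128626532-128626937) had a −log10 q of 29.1, a fold enrichment of 5.62 (77 fragments over 12.9) and rank 143, and its 154Q summit had a −log10 q of 17.0 and rank 157, the highest of the ribosomal protein genes in that list. In the 154Q[V591A;S602D] list Rps26 was close to the calling threshold, with a −log10 q of 1.53 and a fold enrichment of 2.85 (20 fragments over 6.36). That summit lay 118 bp downstream of the start in an exon, and the highest WT and 154Q summits lay 57 and 76 bp upstream of it. Lesser summits lay downstream in both lists, at 49 bp (−log10 q 5.76) and 158 bp (3.07) in WT and at 64 bp (3.8) in 154Q.

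The 3rd to 5th WT values were those of Rpl10, Rps27a and Rps19. Rpl10, a large-subunit protein near the peptidyl transferase centre encoded on the X chromosome, had a WT −log10 q of 13.8 with a fold enrichment of 3.62 (64 fragments over 17.0), and 1.98 in the 154Q list. Rps27a, which encodes a fusion of ubiquitin and a small-subunit protein, had a WT −log10 q of 13.3 with a fold enrichment of 4.79 (43 over 8.19). Its 154Q value was 4.39, and its WT peak held a 2nd summit at exactly the 154Q position with a −log10 q of 7.20. Rps19, the small-subunit protein most often mutated in Diamond-Blackfan anaemia, had 10.2 in the WT list with a fold enrichment of 3.33 (55 over 15.8) and 5.19 in the 154Q[V591A;S602D] list with 3.39 (33 over 9.02). It had no promoter peak in the 154Q list.

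Of the other members in more than 1 list, Rps3, which sits at the mRNA entry channel, had a −log10 q of 9.22 in WT and 11.4 in 154Q, and Rplp2, a stalk protein, had 9.19 and 6.33. Rps9 had 6.81 and 3.04. The values of Rpl31 were 2.99 and 1.44, with the 154Q summit in an intron 879 bp from the WT summit, so that these are not the same position. Rpl27 was called in all lists, but never high, with 4.15 for WT, 1.32 for 154Q and 1.97 for 154Q[V591A;S602D], the last at a fold enrichment of 2.76 (25 fragments over 8.43). The calling threshold, q = 0.05, is 1.3 on this scale, so the 154Q value of Rpl27 was barely above it. The 154Q-only genes were Rpl39 at 4.97, on the X chromosome, and Rpl6 at 3.81. The 5 highest 154Q values were therefore those of Rps26, Rpl41, Rps3, Rplp2 and Rpl39.

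The 17 WT-only genes had lower values, none above the 6.22 of Rpl19. The 10 highest were Rpl19 (6.22), Rps14 (5.89), Rps2 (3.71), Rps20 (3.24), Rps18 and Rps25 (both 3.18), Rps12 (3.17), Rpl7 (3.09), Rpl22l1 (2.96) and Rpl18 (2.07). The others included Rpl7a, Rps23, Rps15a, Rpl22, Rpl35a and Rps16. With 1 list per genotype, genotype and depth cannot be told apart in their absence from the other lists, since the WT list is also the longest. As many mice were merged for 154Q as for WT (4 each), and 3 for 154Q[V591A;S602D].

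**Figure D2:**
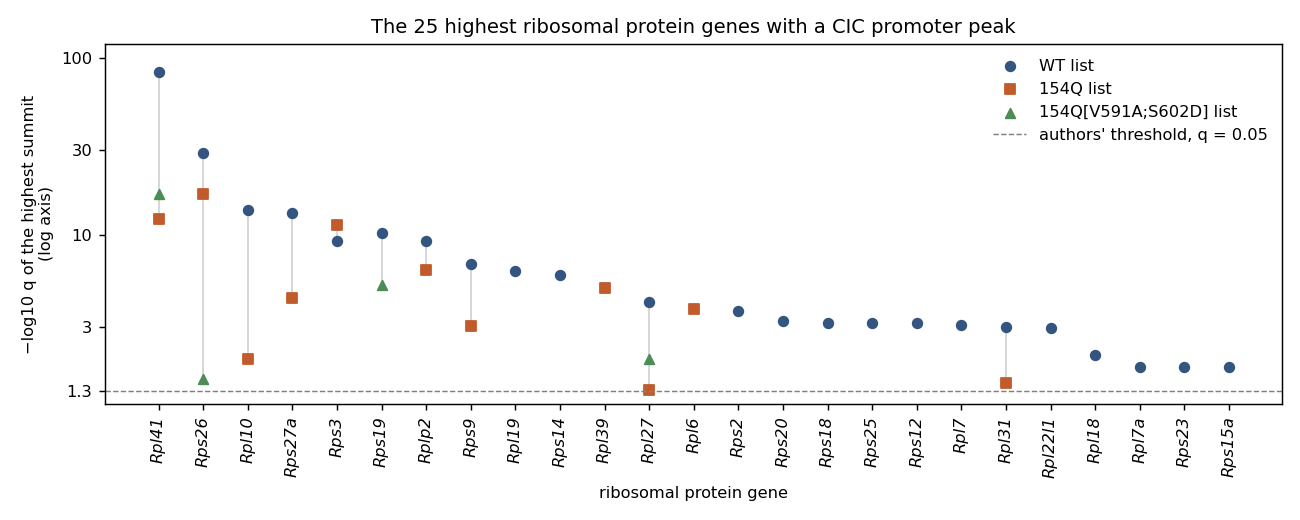
Highest −log10 q (log axis) of the 25 ribosomal protein genes with the highest values among the 29 with a promoter peak, by list, with the authors' threshold of q = 0.05 as a dashed line. A missing symbol means no summit of that list within 1 kb. Rpl41 and Rps26 stand at the top, and the WT-only genes lie at 6.22 or below.

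Apart from these few, ribosomal protein peaks were of ordinary height among promoter peaks. Over all 2448 WT promoter peaks the median fold enrichment was 2.93, and over the 27 at ribosomal protein genes it was also 2.93, with a range from 1.63 to 8.36. The median fragment number at the summit was 38 for the members and 36 for all, and the median background was 10.5 and 9.94. The median −log10 q was 3.18 for the members and 4.60 for all promoter peaks, and 5 of 27 members' peaks (18.5%) exceeded 10, against 569 of 2448 (23.2%). In the 154Q list the medians were 4.1 over 12 peaks (Rps27a had 2) and 3.95 over 994. In the 154Q[V591A;S602D] list they were 3.58 over 4 peaks and 3 over 568, with median fold enrichments of 3.12 in both. Ribosomal protein genes were thus more often on the WT and 154Q lists than genes in general, and the median height of their peaks was near that of other promoter peaks. The WT peak of Rpl18 had 67 fragments over a CIC KO background of 36.9, a fold enrichment of 1.8.

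**Figure D3:**
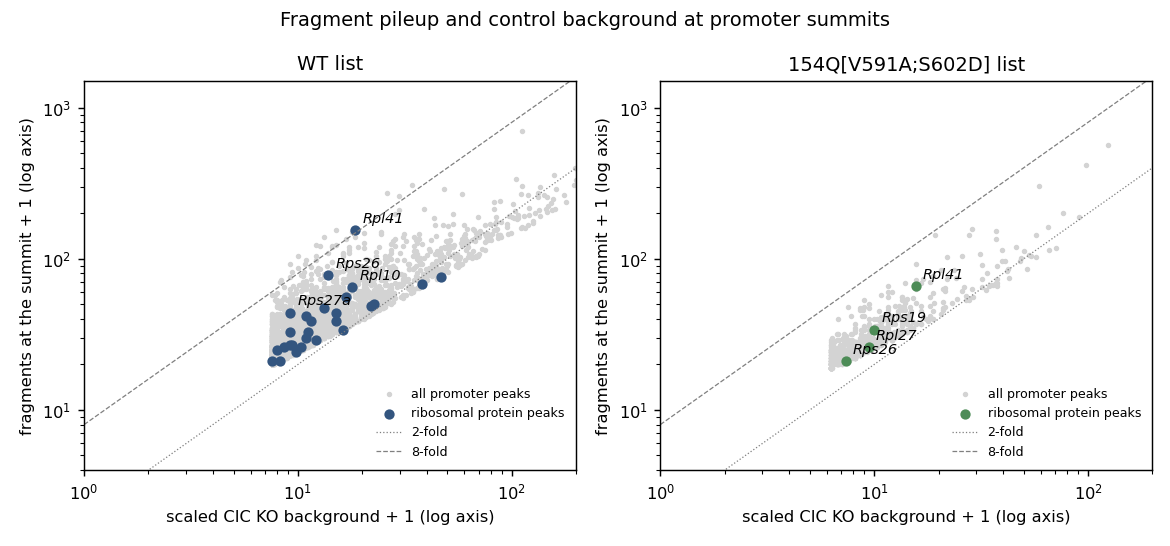
Fragments at the summit against the scaled CIC KO background (both plus 1, log axes) for promoter peaks of the WT and 154Q[V591A;S602D] lists, solved from fold enrichment and −log10 p. The 154Q list gives no fold enrichment. Grey points are all promoter peaks, coloured points ribosomal protein peaks, and the lines mark ratios of 2 and 8. WT Rpl41, at 8.36-fold, lies just above the upper line, and most members lie between the lines.

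Summits at ribosomal protein genes lay close to the start. Measured to the nearest annotated start of the gene itself, upstream negative, the 27 WT summits ran from −266 bp (Rpl35a) to 167 bp (Rpl22l1) with a median of −65 bp, and 26 of 27 were within 250 bp. The 12 summits in the 154Q list ran from −388 to 496 bp with a median of −48 bp, and the 4 of 154Q[V591A;S602D] from −104 to 118 bp. Measured to the nearest start of any protein-coding gene, 27 of 27 member summits (100%) and 1804 of 2448 of all WT promoter summits (73.7%) were within 250 bp. In the 154Q list the same shares were 9 of 12 (75%) and 738 of 994 (74.2%). In the WT list, 14 of the 27 best summits were upstream of the gene, 7 in an exon outside the coding sequence and 6 in an intron, and none was in coding sequence.

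Some peaks cannot be given to 1 gene. At 7 WT peaks (25.9%) the summit was also within 1 kb of the start of another protein-coding gene, against 362 of 2448 WT promoter peaks in general (14.8%). The neighbours were Sphk2 at Rpl18, Iqcg at Rpl35a, Rdh10 at Rpl7, Med22 at Rpl7a, Vps52 at Rps18, Trappc4 at Rps25 and Clhc1 at Rps27a. At Rpl35a the summit was 3 bp from the Iqcg start and 266 bp from that of Rpl35a itself, and at Rpl18 it was 96 bp from Sphk2 and 154 bp from Rpl18. The genes with the 3 highest peaks (Rpl41, Rps26 and Rpl10) had no such neighbour.

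**Figure D4:**
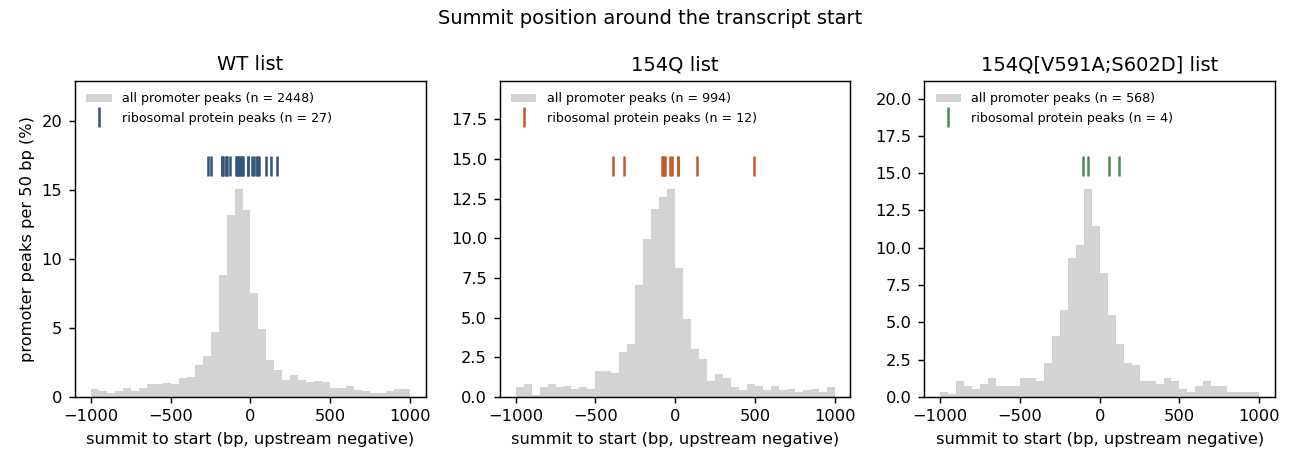
Position of summits relative to the transcript start (bp, upstream negative). Grey bars give the share of all promoter peaks of a list per 50 bp, to the nearest start of any protein-coding gene, and coloured ticks the ribosomal protein summits, to the nearest start of the gene itself. The WT ticks lie between −266 and 167 bp.

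The CIC octamer was rare at ribosomal protein promoters. The words TGAATGAA, TGAATGGA, TCAATGAA and TCAATGGA were searched on both strands within 50 bp of the highest summit of each peak. They were found at 0 of 27 member peaks of WT, 0 of 12 of 154Q and 0 of 4 of 154Q[V591A;S602D]. Counts of 0 allow shares of up to 11.1%, 25% and 75%, so none of these zeros is distinguishable from the shares over all promoter peaks, which were 1.63%, 4.23% and 2.99%. Over every summit within 1 kb of a member's start, lesser ones included, the counts were 0 of 40, 0 of 18 and 1 of 5 (20%), against 1.72%, 3.76% and 3.17% of all promoter summits. The 1 summit was at Rps19, at position -253 relative to the start, with a −log10 q of 2.53. Within 100 bp of the highest summit, 1 WT peak, also at Rps19, had an octamer (3.70%, against 3.43% of all WT promoter peaks). In the RefSeq promoter sequences (250 bp before to 50 bp after the start, build GRCm38), which matched 65 of the 85 members, 0 of 65 held an octamer, against 578 of 16522 promoters (3.50%). This allows a share of up to 4.62%. The RefSeq sequences are placed by the RefSeq start and do not always cover the peak. At Rpl18, Rps15a, Rps19 and Rps26, for example, the highest WT summit lay outside them. The octamer is infrequent at CIC promoter peaks in general in these lists.

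The ETS, YY1 and SP/KLF motifs and the pyrimidine start were more frequent in ribosomal protein promoters than in all promoters. The ETS core CCGGAAG, searched on both strands like each of these motifs, was present in 24 of 65 ribosomal protein promoters (36.9%), against 12.3% of all. The YY1 core ATGGCGG was present in 10 of 65 (15.4%, against 5.61%) and the SP/KLF box GGGCGG in 39 of 65 (60%, against 48.2%). The NRF1 core GCGCATGC was present in 2 of 65 (3.08%, against 3.76%). A C within 5 bases of the start followed by at least 4 pyrimidines, as in 5′ TOP mRNAs, was present in 29 of 65 (44.6%, against 18.9%). All these shares come from the same RefSeq sequences, so for genes with a peak they describe the promoter and not always the sequence under the summit. Among members with a peak in any list, the ETS core was in 10 of 24 (41.7%), against 14 of 41 members without a peak (34.1%) and 19.6% of all genes with a peak. The SP/KLF box was in 62.5% of members with a peak and 58.5% of those without, below the 72.6% of all genes with a peak. The YY1 core was in 2 of 24 (8.33%) and 8 of 41 (19.5%), against 9.36%, and the NRF1 core in 0 of 24 and 2 of 41, against 7.55%. Read against genes with a peak, the ETS core and the pyrimidine start (54.2%, against 19.4%) were more frequent in the members, and the SP/KLF, YY1 and NRF1 motifs were not. Within 50 bp of the highest summit, the ETS core was in 4 of 27 WT peaks (14.8%, against 6.21% of all WT promoter peaks), 1 of 12 of 154Q (8.33%, against 6.74%) and 1 of 4 of 154Q[V591A;S602D] (25%, against 6.16%). The SP/KLF box was in 8 of 27 WT peaks (29.6%, against 38.4%). The base composition of the summits was lower in GC than usual, with a median of 56.4% in WT and 52.0% in 154Q, against 61.4% over all promoter peaks of either list.

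The bipartite element printed at the head of the sequences was noticed when the members' summit windows were read, so its count among the members is a description and supports nothing. It was counted with at most 1 mismatch over its 12 letters, on both strands, within 250 bp of the gene start. It occurred at 9 of 85 ribosomal protein genes (10.6%), against 681 of 21938 protein-coding genes (3.10%). The 9 genes included Rpl6, Rpl7, Rpl23a, Rpl41, Rplp2, Rps3, Rps26 and Rps27a. All but Rpl23a had a CIC promoter peak in at least 1 list. By list, 7 of the 9 had a WT peak, 6 a 154Q peak and 2 (Rpl41 and Rps26) a 154Q[V591A;S602D] peak. Of the 76 members without the element, 20 (26.3%), 5 (6.58%) and 2 (2.63%) had one. Of the 11 members on the 154Q list, 6 thus carried the element.

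The same count was made in genes that played no part in choosing the element. Of the 672 other protein-coding genes with the element, 227 (33.8%, 30.3 to 37.4%) had a WT peak, against 11% of those without it. For 154Q the shares were 15% (101 genes) and 4.52%, and for 154Q[V591A;S602D] 8.33% (56 genes) and 2.63%. CpG-rich promoters were more frequent among these other genes with the element (62.1%) than among those without it (43.7%). Within CpG-rich promoters, 176 of 417 of them with the element (42.2%) and 1837 of 9253 without it (19.9%) had a WT peak. Outside CpG-rich promoters 51 of 255 (20%) and 486 of 11928 (4.07%) had one. The shares depended on the mismatches allowed. With 2 mismatches, the share of other genes with the element that had a peak fell to 21.7% (WT), 9.75% (154Q) and 5.96% (154Q[V591A;S602D]). No test was made, and genes that share a promoter are not independent.

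The summit did not always lie over the element. At Rplp2 the WT and 154Q summits were 7 and 16 bp from its centre, and at Rpl6 the 154Q summit was 13 bp from it. At Rps27a its centre was 31 bp from the 154Q summit and from a lesser WT summit (−log10 q 7.20, against 13.3 at the highest WT summit). At Rpl7 the WT summit was 87 bp from it. At Rps3 the printed copy was 59 bp from the WT summit and 35 bp from the 154Q summit. A further Rps3 copy with the same letters lay nearer to both summits, within 50 bp of each. At Rps26 the distances were 65 bp (WT), 46 bp (154Q) and 240 bp (154Q[V591A;S602D]). At Rpl41, the highest peak, the summits were 139 to 157 bp from the element, and the ETS core was 30 bp from the WT summit. Counted within 50 bp of the highest summit of each peak, whole element included, it was found at 4 of 12 member peaks in the 154Q list (33.3%) and 2 of 27 in the WT list (7.41%), against 47 of 994 (4.73%) and 103 of 2448 (4.21%) of all promoter peaks, and at 0 of 4 of 154Q[V591A;S602D], against 3.52%.

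**Figure D5:**
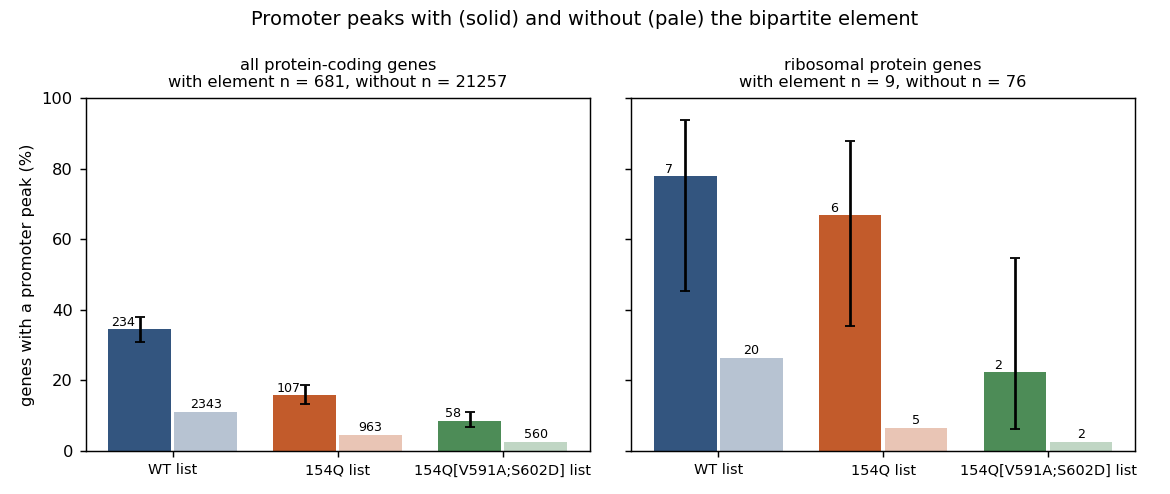
Share of genes (%) with a CIC promoter peak, for genes with the bipartite element within 250 bp of the start (solid bars, 95% Wilson intervals) and without it (pale bars, no interval drawn), in all protein-coding genes and in the 85 ribosomal protein genes. Numbers above bars count genes with a peak. In all genes the WT shares are 34.4% and 11%, and in the ribosomal protein genes, from which the element was read, 77.8% and 26.3%.

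Related gene classes were counted by the same rule to see where ribosomal protein genes stand. Genes of the separate ribosome of mitochondria had a peak in 18 of 78 cases for WT (23.1%, 15.1 to 33.6%), 8 for 154Q (10.3%) and 7 for 154Q[V591A;S602D] (8.97%). Other 5′ TOP genes had one in 7, 3 and 3 of 15 cases, and among them the elongation factor gene Eef1a1 had −log10 q values of 11.6, 15.2 and 1.73. The initiation factor genes had one in 11, 9 and 7 of 55 cases, led in WT by Eif5a (38.4) and Eif3k (28.3). Of 20 ribosome biogenesis genes, 7, 3 and 2 had one, led by Rrp9 (36.4 in WT). Proteasome subunits had 12, 4 and 0 of 40. The interval of the ribosomal protein genes in the WT list, 22.8 to 42.3%, overlapped that of each of these classes.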

How the data were processed

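CUT&RUN libraries of 15 mice were processed by the authors, who trimmed reads (Trimmomatic 0.36), aligned them to mm10 (Bowtie2 2.3.4.1, SAMtools 1.10, bedtools 2.29.1, per the submitters' processing notes), kept short fragments, merged replicates per genotype and called peaks with MACS3 at q = 0.05 against merged CIC KO. Each summit deposited for WT and for 154Q[V591A;S602D] has a fold enrichment (ratio) and the −log10 of a p-value and of a q-value. For 154Q the deposited summits are 1 bp wide and carry only a number taken here as −log10 q. The name of that list alone mentions repeat masking, and the study's methods describe repeat removal for CIC peaks without naming a list. The lists hold 6018, 2091 and 1109 summits (5998, 2079 and 1100 on chromosomes 1 to 19, X and Y, in 4588, 1690 and 918 peaks). The fragments kept per animal cannot be read from these lists, and 0 per-sample columns were left out.

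Summits were assigned to GENCODE M21 basic starts (Python 3.11.15, pandas 2.3.3, pysam 0.24.0), with shares given 95% Wilson intervals (statsmodels 0.14.6). A gene was represented by its summit with the highest −log10 q. CpG content and the bipartite element were measured at the 5′ end of the gene record. Fragment numbers and background were recovered as the whole number whose Poisson tail gave the stated −log10 p at that fold enrichment (SciPy 1.17.1). Both steps were tested on simulated data. Named were every member with a 154Q or 154Q[V591A;S602D] peak, the 10 highest WT-only members with values and others by name, full values for the 5 highest per list where the list gives them, and CIC targets as a scale. Some items are not reported here. The paralogous copies and the other gene classes were counted by symbol. The members and lists were chosen with earlier results of these data known. Alternatives were other distances, starts, q thresholds, repeat and list-length filters, member sets, backgrounds and motif windows.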

Additional observations from a re-analysis of the deposited data

How the results depend on the processing

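The members' counts were within 1.5 times of those reported for distances of 250 bp, 500 bp and 2 kb, both other choices of start, repeat removal and removal of the paralogs. Other thresholds moved them. At −log10 q above 3 the WT count fell to 17 of 85, against 8.22% of all genes, a ratio of 2.43. The 154Q[V591A;S602D] count fell to 2 of 85, against 1.46%, a ratio of 1.61. Above 10 the counts were 5 (WT), 3 (154Q) and 1 (154Q[V591A;S602D]), against 3.04%, 0.884% and 0.296% of all genes. The ratios above 10 were 1.93, 3.99 and 3.97 in this order. With 918 peaks in each list, the counts were 6 in WT and 7 in 154Q beside 4 in 154Q[V591A;S602D]. The ratio to all genes left the interval of the reported value for the CpG-rich background (1.52 in WT, 1.5 in 154Q) and for −log10 q above 10 (1.93 in WT). Against the CpG-rich background the 154Q[V591A;S602D] ratio was 0.935, inside the interval of its reported value. Elsewhere the ratio to all genes ran between 2.11 and 2.90 in WT, 2.84 and 3.99 in 154Q, and 1.61 and 3.97 in 154Q[V591A;S602D], the last from 1 gene. The octamer within 100 bp was found at 1 WT member peak, and over every summit, an alternative added after seeing the data, at 1 summit of 154Q[V591A;S602D]. Taking the 5′ end of the gene record alone removed Rps14 and Rps2 from the WT count and added Rpl3. For the bipartite element, added after seeing the data, exact matches gave 4 members and 262 genes, and 2 mismatches gave 11 and 1622. With exact matches, 34.9% of other genes with the element and 11.4% of those without it had a WT peak, and among the members 2 of 4 (50%) and 30.9% did. For 154Q[V591A;S602D] the members' order turned, with 0 of 4 against 4.94%. With 2 mismatches the other genes' WT shares were 21.7% and 10.9%, and their 154Q shares 9.75% and 4.46%. No paired analysis was possible because replicates were merged before peak calling, and for the same reason leaving out single replicates could not be run. A gene without a peak was below the calling threshold of that merged list, and binding below it was not detectable here.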
